A study of Homo sapiens with 6 samples.

Results

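The genes described here are the 9 that write, maintain, erase or indirectly govern DNA methylation: DNMT1, DNMT3A, DNMT3B, UHRF1, TET1, TET2, TET3, IDH1 and IDH2. They were taken by name from a table of 29810 genes, and all 9 were found, each on 1 row. RNA came from Kasumi-1, an established human line grown from acute myeloid leukaemia, with the t(8;21) translocation that joins RUNX1 to RUNX1T1. In 3 samples the cells were incubated with I1, an agent for which the labels give only this code, at 0.125 µM for 48 h. The other 3 samples were incubated with control for the same 48 h, and the labels do not say what the control contained. All 6 samples are 1 line at 1 time, with 1 dose of I1, and nothing in the labels says that the replicates came from separate cultures.

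DNA methylation in mammals is a methyl group on the cytosine of a CpG pair. DNMT3A and DNMT3B place it on unmethylated DNA, UHRF1 recognises DNA methylated on the old strand alone behind the replication fork, and DNMT1, recruited by UHRF1, copies the mark onto the new strand. The TET enzymes oxidise the methyl group with oxygen, iron and 2-oxoglutarate, which starts its removal. IDH1 in the cytosol and IDH2 in mitochondria make that 2-oxoglutarate from isocitrate, and cancer mutants of either enzyme make 2-hydroxyglutarate, which inhibits TET enzymes. DNMT3A, TET2, IDH1 and IDH2 are among the genes often mutated in acute myeloid leukaemia. The values below are RNA levels, and neither methylation, protein nor sequence variants were measured here.

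The deposited levels are in FPKM, which divides the fragments of a gene by its length and by the library total. Levels of different genes can then be set side by side, as far as that length fits the transcripts present. The library totals that the values imply were 16391000 to 16948000 fragments with I1 and 17331000 to 18204000 in control. For the 9 genes the values came out as whole numbers of reads in every library, from 355 reads for DNMT3B to 8635 reads for DNMT1 with I1, and from 418 reads for DNMT3B to 8415 reads for DNMT1 in control. The libraries carried the markers of myeloblasts, all 11 of them above the filter on low values, with MPO, the peroxidase of azurophil granules, at 6712 ± 357 FPKM with I1 and 8054 ± 1219 FPKM in control (SD, n = 3 each). Of other cell types, the erythroid markers in the table summed to 0.156 to 0.221 FPKM with I1 and 0 to 0.0265 FPKM in control, and those of T cells to 3.23 to 3.70 FPKM with I1 and 2.91 to 4.27 FPKM in control. Most of the T cell sum was CD8A, at 2.21 to 3.31 FPKM with I1 and 2.19 to 3.73 FPKM in control. CD3D had 0.394 to 1.27 FPKM with I1 and 0.532 to 0.791 FPKM in control, and CD3E and CD2 stayed under 0.1 FPKM in all 6 libraries. EPCAM, a surface protein of epithelia, was the only stromal or epithelial marker to reach 1 FPKM, at 26.7 to 31.3 FPKM with I1 and 23.2 to 27.6 FPKM in control. Control replicate 1 stood apart from the other 5 libraries, with a mean correlation of 0.948 with the others against 0.966 to 0.973. Across 11899 genes, which are not independent, the log2 fold change of I1 over control fell with the GC content of the gene (Spearman's rho -0.76). The deviation of control replicate 1 from the mean of all libraries rose with GC content (rho 0.75). For control replicates 2 and 3 rho was -0.19 and 0.26, and for I1 replicates 1 to 3 it was -0.33, -0.59 and -0.51. Values after a correction for GC content and without control replicate 1 are given beside the members, and the part of either in a difference was not tested. In bulk RNA, fewer cells of a type and less RNA per cell cannot be told apart.

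The promoter sequences of DNMT1 and UHRF1 are shown because both genes are known targets of E2F, the factors that switch on genes of S phase, and this bears on the replication genes compared with them below. Each window holds 250 bases before and 50 bases after a transcription start in RefSeq, on GRCh38.p14, written 5′ to 3′ on the gene's strand. The search covered TTTCCCGC, TTTCGCGC, TTTGCCGC and TTTGGCGC on both strands, and each window shown holds 1 match, in capitals. The table gives more than 1 start for UHRF1, and the data do not show which one these cells use.
DNMT1, chr19:10194904-10195203, minus strand: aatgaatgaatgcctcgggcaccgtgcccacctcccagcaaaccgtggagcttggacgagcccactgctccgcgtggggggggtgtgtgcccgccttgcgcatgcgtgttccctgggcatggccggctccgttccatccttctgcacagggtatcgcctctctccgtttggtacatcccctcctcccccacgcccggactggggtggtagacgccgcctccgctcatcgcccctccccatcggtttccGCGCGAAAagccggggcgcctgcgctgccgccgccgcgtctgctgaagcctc
UHRF1 first start, chr19:4909251-4909550, plus strand: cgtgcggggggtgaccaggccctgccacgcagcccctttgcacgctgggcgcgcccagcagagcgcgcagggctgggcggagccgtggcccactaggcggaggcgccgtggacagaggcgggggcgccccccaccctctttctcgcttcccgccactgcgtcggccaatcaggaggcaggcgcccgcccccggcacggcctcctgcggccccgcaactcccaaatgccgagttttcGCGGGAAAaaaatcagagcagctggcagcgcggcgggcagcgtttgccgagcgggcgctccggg
UHRF1 second start, chr19:4909894-4910193, plus strand: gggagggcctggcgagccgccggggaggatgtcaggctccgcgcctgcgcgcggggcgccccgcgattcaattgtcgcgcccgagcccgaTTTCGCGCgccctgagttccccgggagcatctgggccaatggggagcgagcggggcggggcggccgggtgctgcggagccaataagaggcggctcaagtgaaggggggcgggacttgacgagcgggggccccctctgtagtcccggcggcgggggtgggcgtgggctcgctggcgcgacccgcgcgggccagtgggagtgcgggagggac
In the DNMT1 window the complement of TTTCGCGC begins 2 bases before the start. In UHRF1 the complement of TTTCCCGC begins 14 bases before the first start and TTTCGCGC begins 160 bases before the second, and the window of the remaining start holds none. One of the 4 motifs was present in 3.31% of all 35116 windows (TTTCCCGC in 1.63%, TTTCGCGC in 0.515%, TTTGCCGC in 0.607% and TTTGGCGC in 0.652%). By gene, 2 of the 9 members held one, DNMT1 and UHRF1, against 10 of 15 S phase genes with a window and 3.99% of all 27305 genes.

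The TET promoters are shown because the 3 TET genes are compared with one another across the libraries below. Capitals mark each CpG, the pair that these enzymes act on.
TET1, chr10:68560087-68560386, plus strand: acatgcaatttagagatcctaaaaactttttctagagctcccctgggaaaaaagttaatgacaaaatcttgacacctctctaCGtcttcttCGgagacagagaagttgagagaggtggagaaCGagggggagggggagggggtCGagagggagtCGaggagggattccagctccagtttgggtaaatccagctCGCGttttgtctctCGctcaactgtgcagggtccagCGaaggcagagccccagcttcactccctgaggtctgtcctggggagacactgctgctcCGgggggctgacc
TET2, chr4:105145625-105145924, plus strand: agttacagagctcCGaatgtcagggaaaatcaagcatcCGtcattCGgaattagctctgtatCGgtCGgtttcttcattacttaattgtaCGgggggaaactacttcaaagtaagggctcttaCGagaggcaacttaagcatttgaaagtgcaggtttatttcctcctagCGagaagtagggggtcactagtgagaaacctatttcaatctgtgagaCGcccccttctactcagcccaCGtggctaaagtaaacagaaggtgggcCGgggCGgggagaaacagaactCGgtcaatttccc
TET3, chr2:73984660-73984959, plus strand: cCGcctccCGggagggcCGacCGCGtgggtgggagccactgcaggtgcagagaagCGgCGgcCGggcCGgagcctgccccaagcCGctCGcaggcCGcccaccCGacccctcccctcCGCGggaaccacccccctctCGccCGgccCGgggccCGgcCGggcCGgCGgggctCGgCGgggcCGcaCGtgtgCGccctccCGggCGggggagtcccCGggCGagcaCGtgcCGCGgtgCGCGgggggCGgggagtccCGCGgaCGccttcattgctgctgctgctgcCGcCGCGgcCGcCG
The windows hold 10 CpG for TET1, 13 for TET2 and 45 for TET3, where the median of all windows is 14. The transcripts have a GC content of 41.0% for TET1, 41.9% for TET2 and 55.4% for TET3. None of these 3 windows held 1 of the E2F motifs above. Each gene has other starts in RefSeq, whose windows hold 6 and 11 CpG for TET1, 35 for TET2 and 33 for TET3, and the data do not show which start is used.

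IDH2 had by far the highest mean FPKM of the 9 transcripts and TET2 the lowest. The exon length behind FPKM is 16474 bases for TET2 and 4630 for DNMT3B. In control TET2 had 737 to 1545 reads and DNMT3B 418 to 431, so the last place of TET2 rests on this length. The first place of IDH2 rests on length as well, with 2814 exon bases against 9796 for DNMT1. IDH2 had 5761 to 7476 reads with I1 and 7707 to 8267 in control. DNMT1 had 7386 to 8635 reads with I1 and 7606 to 8415 in control. By mean level, 98.4% of the 9858 tested protein-coding genes lay below IDH2, 93.1% below DNMT1 and 89.1% below UHRF1. TET3, TET1 and DNMT3A had 73.0%, 70.7% and 65.2% of genes below them, IDH1 56.6%, DNMT3B 34.3% and TET2 28.5%. In both groups the ranges of IDH2, DNMT1 and UHRF1 did not overlap with one another or with any other member. Among neighbours further down, the ranges of TET1 and TET3 overlapped with I1 and in control, as did those of DNMT3A and IDH1, and of DNMT3B and TET2. With I1 the ranges of TET3 and DNMT3A were apart, while in control TET1 lay next to DNMT3A and overlapped it, with means of 12.4 and 12.2 FPKM.

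**Figure D1:**
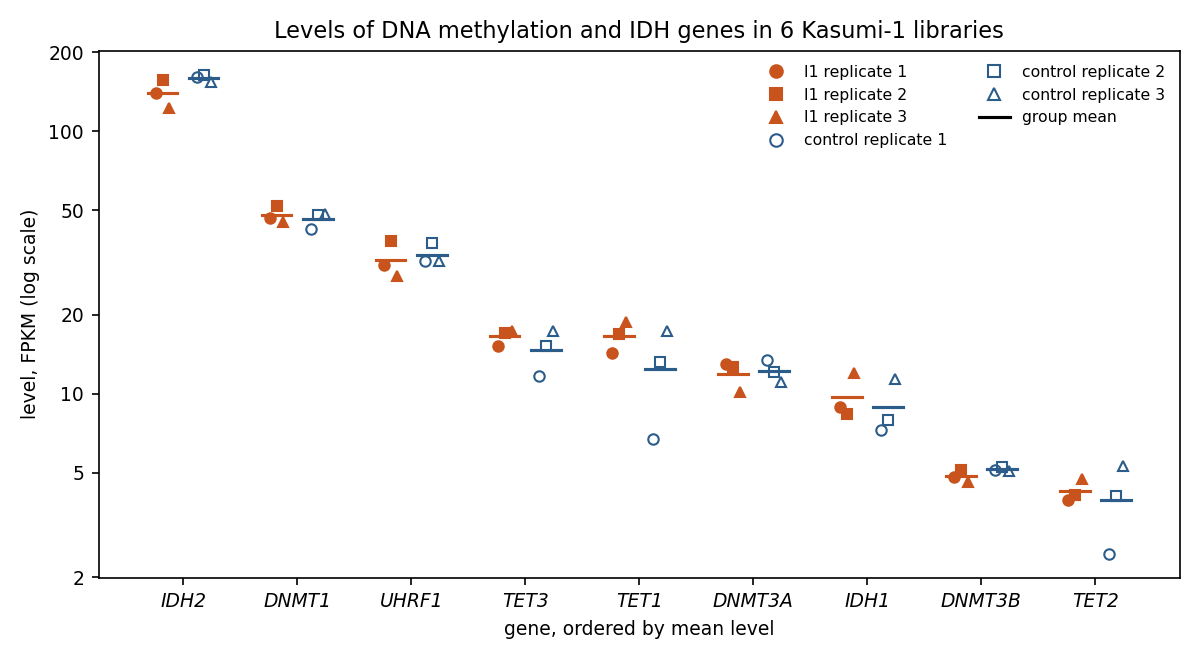
Level of each gene in FPKM on a log axis, 1 point per library with I1 libraries filled and control libraries open, and a line at each group mean. IDH2 lies between 123 and 165 FPKM in all 6 libraries and TET2 between 2.46 and 5.30 FPKM, and the 2 groups overlap for every gene.

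The comparison asked which of these transcripts differed after 48 h with I1. None passed. Of the 9 members, all above the filter of 1 FPKM in 3 libraries, 0 rose and 0 fell by limma, where a call needs an adjusted p under 0.05 and a log2 fold change of 1 or more in either direction, and 0.0336% of the 11913 tested genes passed. At an unadjusted p under 0.05 the count was again 0 of 9, against 9.57% of all tested genes. The groups overlapped for all 9 members, and 21.6% of tested genes had groups that did not. The median log2 fold change was 0.047 over the members, 5 above and 4 below 0, and 0.034 over all tested genes. Between same-numbered libraries 5 of 9 members differed in the same direction in all 3 pairs, against 57.9% of all tested genes. TET1, TET3 and IDH1 were higher in all pairs, as 32.1% of genes were, and DNMT3B and IDH2 lower, as 25.8% were. In a fit that takes same-numbered libraries as pairs, 0 of 9 members reached an adjusted p under 0.05 (0.0504% of tested genes did), and 2, TET1 and IDH2, had an unadjusted p under 0.05 (27.1% of tested genes did).

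DNMT1, the maintenance methyltransferase (ENSG00000130816, chromosome 19, 10133345 to 10231286, minus strand of hg38), had 46.7, 52.0 and 45.4 FPKM in I1 replicates 1 to 3, against 42.7, 48.1 and 48.6 FPKM in control replicates 1 to 3. The groups overlapped, and the highest value was that of I1 replicate 2. The means were 48.0 ± 3.52 FPKM with I1 and 46.5 ± 3.30 FPKM in control (SD, n = 3 each). On the scale of log2(FPKM + 1) the fold change was 0.047 ± 0.12 (SE), with a limma adjusted p of 0.844. Its 95% interval ran from a 0.857-fold to a 1.25-fold level, so that a doubling or a halving of DNMT1 lies outside it. The log2 fold change was 0.13 after the GC correction and -0.012 without control replicate 1. DNMT1 shares 83 exon bases, 0.847% of its exons, with S1PR2, a receptor gene on the same strand that had at most 1.53 FPKM in any library.

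UHRF1, the reader that brings DNMT1 to new DNA (ENSG00000276043, chromosome 19, 4903080 to 4962154, plus strand), had 30.9, 38.4 and 28.1 FPKM with I1, against 32.0, 37.6 and 32.2 FPKM in control. In both groups replicate 2 was the highest, as it was for DNMT1 with I1. The log2 fold change was -0.069 ± 0.15 (SE), with a limma adjusted p of 0.809 and a 95% interval of 0.755-fold to 1.20-fold. It was 0.076 after the GC correction, with the sign turned, and -0.11 without control replicate 1. Per library, the ratio of UHRF1 to DNMT1 FPKM was 0.661, 0.737 and 0.620 with I1, against 0.750, 0.781 and 0.662 in control. This ratio does not depend on library scaling, but its size depends on the exon lengths used for FPKM. It was lower with I1 in 3 of 3 same-numbered pairs, but the groups overlapped (difference of log2 ratios -0.12, exact permutation test, 2-sided p = 0.20, where 3 against 3 libraries cannot go below 0.10). Leaving out 1 library at a time gave differences between -0.19 without control replicate 3 and -0.063 without I1 replicate 3.

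DNMT3A, which sets new methylation in blood progenitors and is often mutated in acute myeloid leukaemia (ENSG00000119772, chromosome 2, 25227855 to 25342590, minus strand), had 12.97, 12.7 and 10.2 FPKM with I1, against 13.4, 12.1 and 11.1 FPKM in control. Replicate 3 was the lowest in both groups. The log2 fold change was -0.031 ± 0.14 (SE), with a limma adjusted p of 0.917. Its sign turned to 0.075 after the GC correction and to 0.035 without control replicate 1. DNMT3B, its relative with a main role in the early embryo (ENSG00000088305, chromosome 20, 32762385 to 32809356, plus strand), had 4.81, 5.15 and 4.61 FPKM with I1, against 5.11, 5.28 and 5.10 FPKM in control. It was lower with I1 in 3 of 3 pairs, by 0.904 to 0.974 times the paired control, and I1 replicate 2 lay within the control range. The log2 fold change was -0.075 ± 0.11 (SE), with a limma adjusted p of 0.736, and it was 0.012 after the GC correction and -0.082 without control replicate 1. The spread of DNMT3B in control, 1.96% of its mean, was below the 4.86% that counting its reads alone would give, and with I1 it was 5.58% against 5.17%. DNMT3L, the catalytically inactive partner of the DNMT3 enzymes, averaged 0.016 FPKM over the 6 libraries and was not tested. A change in it was not detectable at this depth.

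TET1 and TET2 had the widest spread of the 9 members in control, and all 3 TET genes were lowest in control replicate 1. TET1 (ENSG00000138336, chromosome 10, 68560656 to 68694482, plus strand), an oxidase with a CXXC domain, had 14.3, 16.9 and 18.7 FPKM with I1, against 6.72, 13.2 and 17.3 FPKM in control. All 3 I1 values lay above 2 of the control values, and control replicate 3 lay inside the I1 range. Its log2 fold change of 0.48 was the largest of the 9 members in size, with an SE of 0.29 and a limma adjusted p of 0.486. The 95% interval of 0.871-fold to 2.22-fold holds both no change and a doubling. TET1 was higher with I1 in 3 of 3 pairs, by 2.13, 1.28 and 1.08 times. Without control replicate 1 the log2 fold change was 0.12 (limma adjusted p = 0.877), and after a correction for GC content it was 0.19 (limma adjusted p = 0.978). The spread of TET1 in control, 43.0% of the mean, stands against 2.34% from counting reads, and 93.8% of tested genes had a smaller spread within groups.

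TET2, which lacks the CXXC domain and is often inactivated in myeloid disease (ENSG00000168769, chromosome 4, 105145875 to 105279816, plus strand), had 3.96, 4.14 and 4.73 FPKM with I1, against 2.46, 4.07 and 5.30 FPKM in control. The control values thus enclosed all 3 I1 values. The log2 fold change was 0.13 ± 0.22 (SE), with a limma adjusted p of 0.753, and it turned to -0.10 without control replicate 1 and to -0.12 after the correction for GC content. TET3 (ENSG00000187605, chromosome 2, 73986404 to 74108176, plus strand), the third oxidase, had 15.2, 17.05 and 17.4 FPKM with I1, against 11.7, 15.2 and 17.3 FPKM in control. It was higher with I1 in 3 of 3 pairs, by 1.31, 1.12 and 1.01 times, with a log2 fold change of 0.17 ± 0.16 (SE) and a limma adjusted p of 0.586. Without control replicate 1 that value was 0.025, and after the GC correction it was 0.28 (limma adjusted p = 0.972). Under that correction the value of TET3 thus grew, that of TET1 shrank and that of TET2 changed sign.

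**Figure D2:**
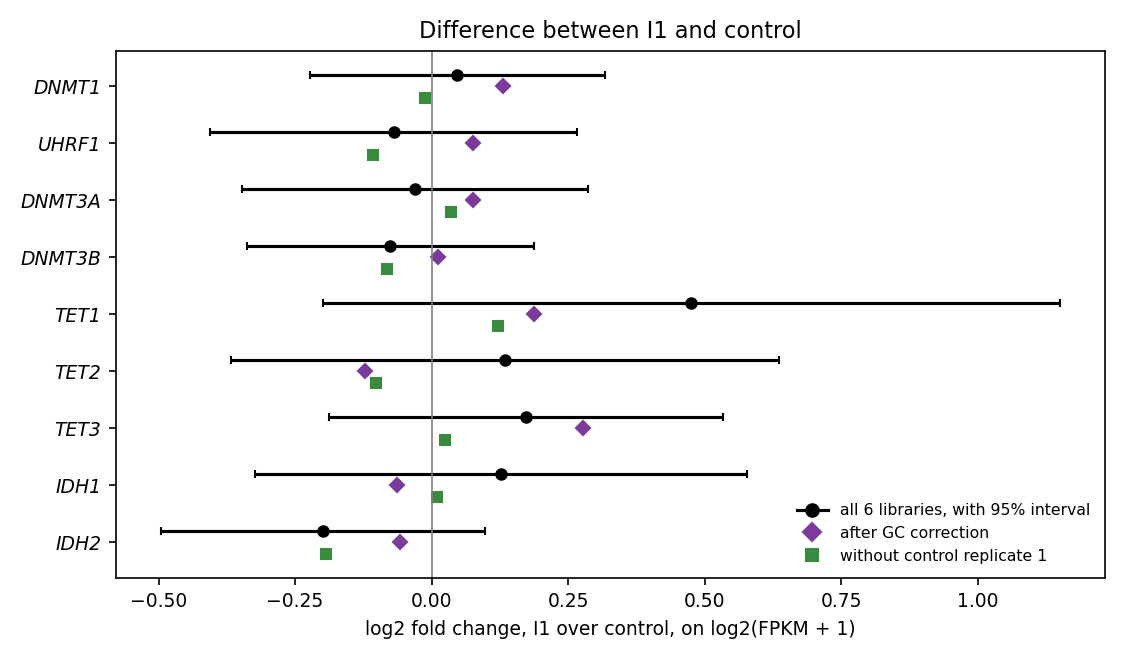
Log2 fold change of I1 over control on log2(FPKM + 1) for each gene: all 6 libraries with the 95% interval (black), after a correction for GC content (diamonds) and without control replicate 1 (squares). Every interval includes 0, and for TET1 the value of 0.48 falls to 0.19 after the correction and to 0.12 without that library.

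IDH1, the cytosolic enzyme (ENSG00000138413, chromosome 2, 208236227 to 208266074, minus strand), had 8.90, 8.35 and 12.0 FPKM with I1, against 7.27, 7.98 and 11.4 FPKM in control. Replicate 3 was the highest in both groups, and each I1 value was above its same-numbered control, by 1.22, 1.05 and 1.05 times. The log2 fold change was 0.13 ± 0.19 (SE), with a limma adjusted p of 0.740, and it was 0.0090 without control replicate 1 and -0.064 after the GC correction. IDH1-AS1, an antisense gene that shares 94 exon bases with it, stayed at or under 0.440 FPKM in every library. IDH2, the mitochondrial enzyme (ENSG00000182054, chromosome 15, 90083045 to 90102504, minus strand), had 140, 157 and 123 FPKM with I1, against 161, 165 and 155 FPKM in control. I1 replicate 2 lay between control replicates 3 and 1, and the other I1 values lay below all controls. The means were 140 ± 16.8 FPKM with I1 and 160 ± 4.94 FPKM in control (SD, n = 3 each). Its log2 fold change of -0.20 ± 0.13 (SE) had a limma adjusted p of 0.495 and a 95% interval of 0.709-fold to 1.07-fold. The value was -0.19 without control replicate 1 and -0.058 after the GC correction. The transcripts of IDH2 have a GC content of 57.3% and those of IDH1 of 43.7%.

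Ratios within a library placed these opposite directions side by side, on values without the GC correction. After that correction IDH1 was at -0.064 and IDH2 at -0.058, both below 0. No ratio, here or for UHRF1 and DNMT1, was computed on corrected values. The ratio of IDH1 to IDH2 FPKM was 0.0634, 0.0533 and 0.0974 with I1, against 0.0451, 0.0485 and 0.0739 in control. The ratio was higher with I1 in 3 of 3 pairs, the groups overlapped, and the difference of log2 ratios was 0.34 (exact permutation test, 2-sided p = 0.40). Leaving out 1 library at a time gave values between 0.094 without I1 replicate 3 and 0.56 without control replicate 3. The summed FPKM of the 3 DNMT genes over that of the 3 TET genes was 1.92, 1.83 and 1.47 with I1, against 2.94, 2.01 and 1.62 in control. The DNMT sum, of which DNMT1 is the most abundant member, was above the TET sum in every library, and the ratio was highest in control replicate 1. The ratio was lower with I1 in 3 of 3 pairs (difference of log2 ratios -0.29, exact permutation test, 2-sided p = 0.40), and leaving out 1 library at a time gave differences between -0.49 without control replicate 3 and -0.061 without control replicate 1.

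**Figure D3:**
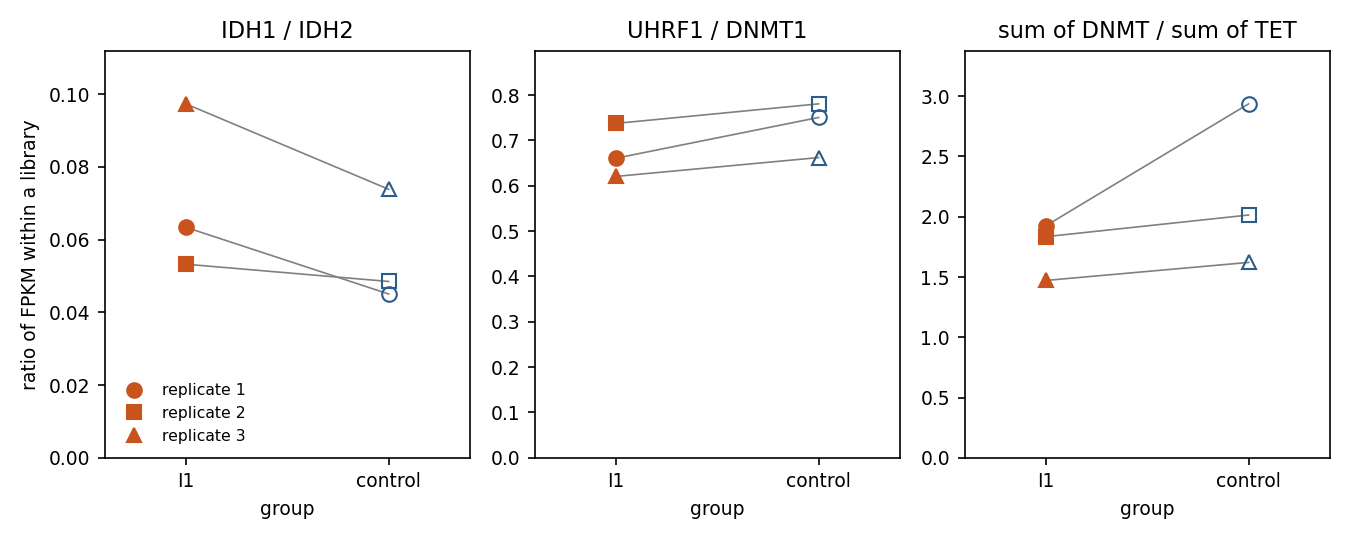
Ratio of FPKM within each library for IDH1 over IDH2, UHRF1 over DNMT1 and summed DNMT over summed TET, with I1 left and control right and lines joining same-numbered libraries. All 3 pairs lean the same way in each panel, and the groups overlap in each (exact permutation p = 0.40, 0.20 and 0.40). The values are not corrected for GC content.

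Levels of pairs of members across the 6 libraries are given as a description with no test, since same-numbered libraries deviate together and are not independent, and the points of a pair share library, depth and base composition. All 36 pairs were computed, and the pairs named here are not a ranking of them. TET1 and TET3 had a Pearson's r of 0.993 and a Spearman's rho of 0.943, with r of 0.968 without the 2 libraries farthest from the median of TET1, I1 replicate 3 and control replicate 1, and of 0.905 on GC-corrected values. TET2 and TET3 had an r of 0.954 and a rho of 0.943, with r of 0.791 without the 2 farthest libraries and 0.398 on GC-corrected values. TET1 and TET2 had an r of 0.947 and a rho of 0.886, with r of 0.674 without the 2 farthest libraries and 0.731 on GC-corrected values. All 3 TET pairs thus had a lower r in both of these settings, with the smallest drops for TET1 and TET3. DNMT3B and IDH2 had an r of 0.979 and a rho of 0.943, with r of 0.751 without I1 replicates 1 and 3 and 0.890 on GC-corrected values. DNMT3B and UHRF1 had an r of 0.855 and a rho of 0.886, with r of 0.686 without these libraries and 0.989 on GC-corrected values. For TET1 and IDH1 r was 0.752, rho 0.943 and GC-corrected r 0.525. For DNMT3A and TET3 r was -0.705, rho -0.943 and GC-corrected r -0.186. DNMT1 and UHRF1 had an r of 0.663 and a rho of 0.771, with r of 0.781 without the 2 farthest libraries and 0.850 on GC-corrected values. DNMT3A and IDH1 ran opposite ways, with an r of -0.912 and a rho of -0.771, and r was -0.294 without I1 replicate 3 and control replicate 3 and -0.933 on GC-corrected values of all 6.

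**Figure D4:**
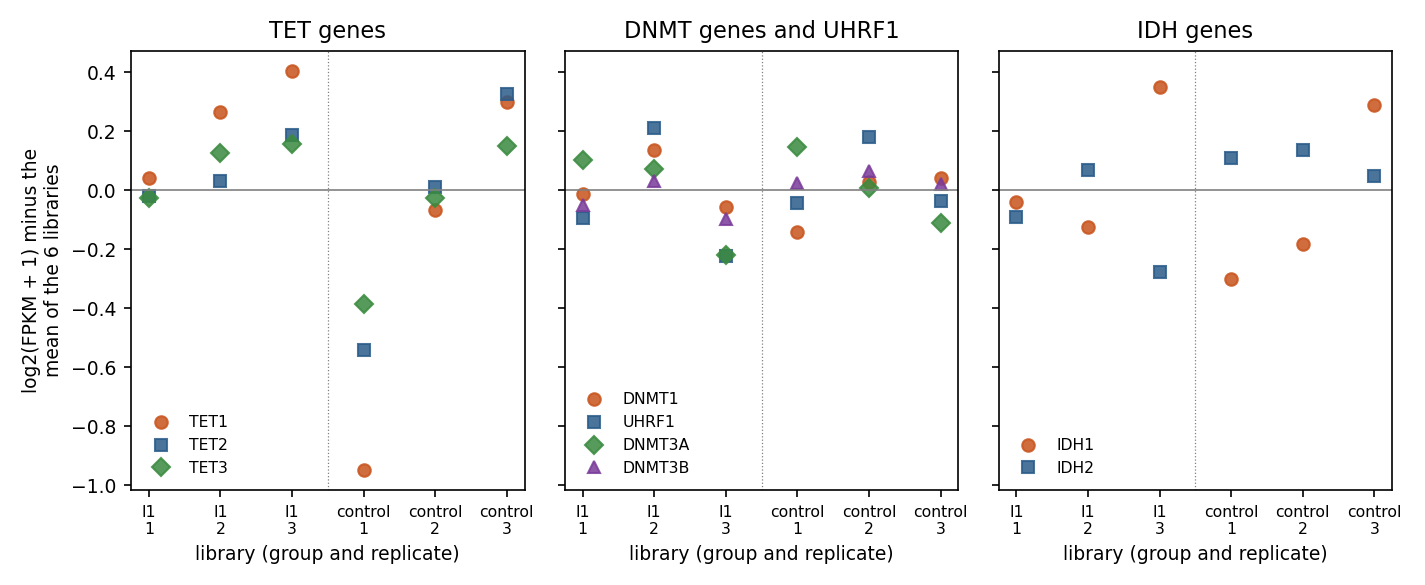
Level of each gene in each library as log2(FPKM + 1) minus the mean of the 6 libraries, with the 3 I1 libraries left and the 3 control libraries right of the dotted line. The 3 TET genes lie lowest in control replicate 1, where TET1 had 6.72 FPKM, and IDH1 and IDH2 lie on opposite sides of 0 in most libraries.

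The genes most like each member over the 6 libraries were sought among 6483 protein-coding genes with a mean of at least 5 FPKM, as a description with no test. TET1 was most like RNF19A (r = 0.998) and SLC30A1 (0.997), and TET3 like UBE4A (0.999) and ATXN7 (0.994). RNF19A had 5.52, 6.28 and 6.59 FPKM with I1, against 3.38, 5.29 and 6.11 FPKM in control, and UBE4A 8.42, 10.1 and 10.4 FPKM with I1, against 5.53, 8.56 and 10.1 FPKM in control. Both were thus lowest in control replicate 1, as the TET genes were. IDH1 was most like BNIP3L (0.996), a mitophagy receptor, which had 12.1, 9.47 and 22.3 FPKM with I1, against 7.03, 8.43 and 19.4 FPKM in control, highest in replicate 3 of both groups, and next like LRP8 (0.993). IDH2 was most like PMPCA (0.995), a subunit of the mitochondrial processing peptidase, and MAP3K11 (0.988). DNMT1 was most like YLPM1 (0.982) and NEK2 (0.981), UHRF1 like BUD13 (0.992) and POLR2J (0.987), DNMT3A like CCDC71 (0.988) and DFFB (0.987), and DNMT3B like HMCES (0.996) and PTPA (0.993).

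Among the partners of maintenance methylation 12 of 14 listed genes were tested, and 0 rose and 0 fell, with a median log2 fold change of 0.11 against 0.03 for all tested genes and -0.05 after the GC correction. PCNA, the sliding clamp of the replication fork, had 139, 168 and 139 FPKM with I1, against 120, 183 and 143 FPKM in control. CDCA7, which with the remodeller HELLS opens chromatin for methylation, had 50.9, 49.0 and 45.5 FPKM with I1, against 35.2, 45.5 and 35.5 FPKM in control. Its I1 values all lay above the controls, with a log2 fold change of 0.33 ± 0.14 (SE) that did not pass (limma adjusted p = 0.467) and was 0.15 after the GC correction. SMCHD1, a chromatin protein of the inactive X chromosome, had 21.8, 23.0 and 22.6 FPKM with I1, against 9.97, 19.2 and 18.8 FPKM in control, and its log2 fold change of 0.52 was 0.12 after the GC correction (limma adjusted p = 0.467 before it). HDAC1, a histone deacetylase, averaged 42.1 FPKM with I1 and 45.7 FPKM in control, and EHMT2, a histone methyltransferase, had the lowest log2 fold change of the list at -0.22. The value of EHMT2 was -0.057 after the GC correction. In this list 3 genes had I1 values above all controls and 0 had them below, against 12.9% and 8.74% of all tested genes.

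Of the proteins that read methylated CpG, 7 of 8 were tested and 0 passed, with a median log2 fold change of 0.07. ZBTB33, also called Kaiso, had 12.1, 13.7 and 12.1 FPKM with I1, against 6.07, 10.8 and 8.73 FPKM in control. Its groups did not overlap, and the log2 fold change of 0.54 ± 0.19 (SE) had a limma adjusted p of 0.467 and was 0.19 after the GC correction. MBD4, a reader that is also a DNA glycosylase, averaged 19.5 ± 0.368 FPKM with I1 and 16.9 ± 1.87 FPKM in control, and MBD1 averaged 15.2 ± 0.473 FPKM with I1 and 15.3 ± 0.638 FPKM in control (SD, n = 3 each). ZBTB4 had the lowest log2 fold change, -0.21, which was -0.060 after the GC correction. Of the TET partners and the enzymes that repair oxidised cytosine, 17 of 19 were tested and 0 passed, with a median of -0.03. TDG, the glycosylase that excises the oxidised bases, had 11.8, 17.7 and 13.6 FPKM with I1, against 6.17, 14.7 and 11.2 FPKM in control, higher in 3 of 3 pairs with overlapping groups. Control replicate 1 was again the lowest library, and the log2 fold change of 0.45 was 0.23 after the GC correction. APEX1, the endonuclease that acts after a glycosylase, averaged 160 FPKM with I1 and 190 FPKM in control, and PARP1, a sensor of DNA breaks, 49.6 FPKM with I1 and 49.2 FPKM in control. CXXC5, a CXXC zinc finger protein, had the lowest log2 fold change, -0.24, which was -0.056 after the GC correction.

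The enzymes that supply the methyl donor S-adenosylmethionine gave 0 calls among 12 of 16 genes tested, with a median log2 fold change of 0.07. MAT2A, which makes S-adenosylmethionine, had 179, 102 and 104 FPKM with I1, against 165, 99.1 and 90.8 FPKM in control. Replicate 1 was the highest in both groups. AHCY, which clears the product of the methyltransferases, averaged 64.9 FPKM with I1 and 77.7 FPKM in control. The extremes of the list were SHMT2, a mitochondrial folate enzyme, at -0.36, and MTAP, of methionine salvage, at 0.35. After the GC correction SHMT2 was at -0.22 and MTAP at 0.075. Around 2-oxoglutarate, 24 of 24 genes of the tricarboxylic acid cycle and of 2-hydroxyglutarate were tested and 0 passed, with a median of -0.09 that was -0.13 after the GC correction, and 16 of 24 lay below 0, as did 5424 of all 11913 tested genes. IDH3B, a subunit of the NAD-dependent isocitrate dehydrogenase, had 29.2, 28.2 and 26.9 FPKM with I1, against 37.6, 35.6 and 32.7 FPKM in control. Its groups did not overlap, with a log2 fold change of -0.32 ± 0.11 (SE) and a limma adjusted p of 0.467. The other chains gave -0.02 for IDH3A and -0.27 for IDH3G. With the GC correction IDH3A, IDH3B and IDH3G were at -0.22, -0.23 and -0.099. In all, 5 of the 24 had I1 values below every control, namely IDH3B, IDH3G, OGDH, MDH2 and GOT1, against 8.74% of all tested genes, and 0 had them above. GOT1, a transaminase, had the lowest log2 fold change of the list, -0.35, and SDHD, of succinate dehydrogenase, the highest, 0.64. With the GC correction GOT1 was at -0.33 and SDHD at 0.55. The most abundant, MDH2, a malate dehydrogenase, and GLUD1, which makes 2-oxoglutarate from glutamate, averaged 86.9 and 49.3 FPKM with I1 and 108 and 48.5 FPKM in control.

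Among other dioxygenases that use 2-oxoglutarate, 24 of 26 genes were tested and 0 passed, with a median of 0.01. KDM5B, a histone demethylase, averaged 29.4 FPKM with I1 and 24.6 FPKM in control, and KDM2A, another, 25.8 FPKM with I1 and 26.3 FPKM in control. EGLN1, a prolyl hydroxylase that senses oxygen, gave the largest value at 0.37, and RIOX1, a ribosomal oxygenase, the lowest at -0.30. With the GC correction EGLN1 was at 0.18 and RIOX1 at -0.14. All 19 S phase genes were tested and 0 passed, with a median of 0.06. MCM7 and MCM3 of the replicative helicase averaged 112 and 76.1 FPKM with I1 and 125 and 83.5 FPKM in control, both lower in 3 of 3 pairs. MCM2 had the lowest log2 fold change, -0.20, and CCNE2, a cyclin, the highest, 0.65. After the GC correction MCM2 was at -0.049 and CCNE2 at 0.28. CCNE2 had 3.26, 4.21 and 4.84 FPKM with I1, against 0.937, 3.37 and 2.96 FPKM in control. DNMT1 at 0.047 and UHRF1 at -0.069 lay within the range of these S phase genes. So did every other member, so this range does not set DNMT1 and UHRF1 apart. Of 22 listed germline genes that promoter methylation usually keeps silent, only 4 had values, and the levels of the others are not known. Of the 4, 0 passed the filter and 3 never reached 1 FPKM in any library. MAGEA12 and MAGEB2 were listed at 0 throughout, and SYCP3 reached at most 1.01 FPKM. The 4 summed to 0.663 to 1.02 FPKM with I1 and 0.512 to 0.532 FPKM in control.

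**Figure D5:**
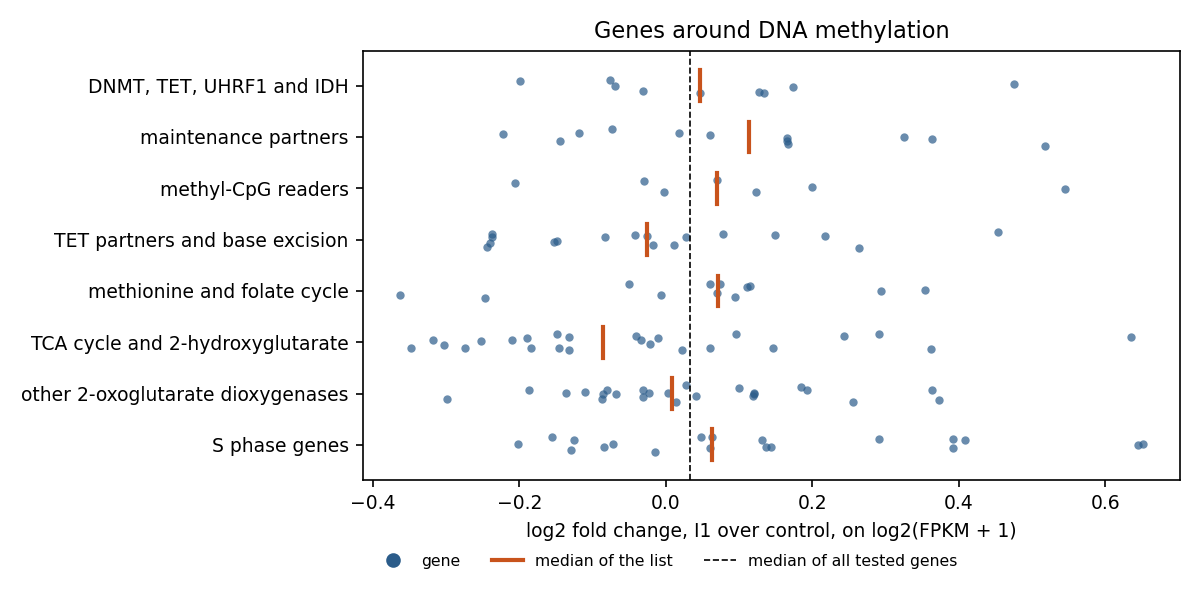
Log2 fold change of I1 over control on log2(FPKM + 1) for each tested gene (points) in the lists around DNA methylation, with the median of each list (bar) and of all tested genes (dashed line, 0.034). The list medians lie between -0.086 and 0.11, and no gene shown passed the test.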

How the data were processed

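Polyadenylated RNA of 6 Kasumi-1 samples was sequenced, 3 with I1 and 3 with control. Per the labels' protocols, Trizol was used to isolate the RNA and a TruSeq Stranded mRNA kit to prepare it. The tools named per the submitters' processing notes are HTSeq, Cufflinks, HISAT2 and Trimmomatic, with the hg38 build. Their roles, versions, annotation and strand setting were not given in the sources used here. FPKM values come from 1 table that the authors deposited, matched to the samples by its column names, although the table is named for MOLM-13 and THP-1 cells with I3, so that whose values it holds rests on its column names alone.

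With exon lengths of GENCODE release 29, 28480 genes (95.9% of those matched) gave whole reads in each library, to within 0.05 reads. Counting errors cover counting error only, and gene-level values do not separate isoforms.

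The 2 groups were fitted in limma 3.58.1 (R 4.3.3) on log2(FPKM + 1) with a trended prior, over 11913 genes that reached 1 FPKM in 3 or more libraries. P-values are 2-sided, with Benjamini-Hochberg adjustment over all tested genes, and this scale understates fold changes of low genes. The GC correction removed a loess curve (span 0.3) per library. Tables were prepared with Python 3.11.15, and the fit was tested on simulated data. The spread behind each p-value is that among these 6 libraries and may be technical. Same-numbered samples deviated together from their group means (r = 0.476, 0.457 and 0.412). The shared numbers were therefore treated as pairs in the pair counts and in a further fit with a replicate block. Unless that block is named, SE, intervals and p-values come from the fit without pairs. Alternatives covered pseudocount, filter, scaling, GC, array weights, recovered reads, pairing and each library left out. Coordinates are 1-based on hg38, and promoter windows are from RefSeq on GRCh38.p14, found for all 9 members. Named are the members and genes overlapping them, the 2 most abundant and the extreme log2 fold changes of each list, and the 2 genes most like each member with at least 5 FPKM. CDCA7, IDH3A, IDH3B, IDH3G, OGDH, DNMT3L and the markers and germline genes named were chosen after their values were seen. The members and lists were chosen with earlier results of these data known.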

Additional observations from a re-analysis of the deposited data

How the results depend on the processing

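No member passed the threshold under any of the 18 other settings or in the fit as reported. TET1 stayed above 0 and IDH2 below 0 in all settings (log2 fold changes 0.053 to 0.74 and -0.28 to -0.058). Over all genes 4 passed; the count was 0 with a pseudocount of 0.1 or 0.5, with no filter, with a mean of at least 5 FPKM, with the GC correction, with protein-coding genes only and with voom on recovered reads, 2 under quantile normalization, 1 with the replicate block and GC correction together, 14 with array weights, and 0 to 2 without 1 library. With the replicate block it was 6, and the block changed no call of a member: at an unadjusted p under 0.05 it gave 2 of 9, TET1 and IDH2, against 27.1% of all genes (limma adjusted p = 0.154 and 0.182). With the replicate block and no GC correction, the paired differences of the log2 ratios were 0.34, -0.12 and -0.29. Each had the smallest p that 3 pairs allow (exact permutation, 0.25). Directions turned as follows, and the cause was not tested. With the GC correction, alone or with the block, log2 fold changes were 0.075 for DNMT3A, 0.012 for DNMT3B, -0.12 for TET2, 0.076 for UHRF1 and -0.064 for IDH1. With array weights they were -0.011 for DNMT1, 0.053 for DNMT3A, -0.17 for TET2, -0.0094 for TET3 and -0.12 for IDH1. Leaving out 1 library gave -0.012 to 0.086 for DNMT1, -0.093 to 0.071 for DNMT3A, -0.10 to 0.33 for TET2, -0.19 to 0.024 for UHRF1 and -0.018 to 0.30 for IDH1. TET2 was not tested with a mean of at least 5 FPKM.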
